A study of Mus musculus and Sus scrofa with 30 samples.

Results

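The genes described here are 28 members of the cholesterol synthesis pathway and of the SREBP2 system that controls it, followed across 30 RNA-seq libraries from 2 cell systems induced to form fat cells. Members were the rows of the 2 expression tables whose gene name equalled a listed name, ignoring case, with CYP51A1 standing for Cyp51 in pig. This gave 28 of 24843 genes listed for mouse 3T3-L1 cells and 27 of 34307 genes listed for pig DFAT cells; no row named LSS was found in the pig table. 3T3-L1 is a mouse embryonic fibroblast line that turns into adipocytes on hormonal induction. DFAT cells are porcine cells that came from subcutaneous fat and reverted to a fibroblast-like state. All 3T3-L1 groups received 0.75 µg/mL insulin, 75 nM dexamethasone and 37.5 µM of the phosphodiesterase inhibitor IBMX in medium with 10% serum. In every DFAT group the mix was dexamethasone at 0.5 µM, the inhibitor IBMX at 12.5 µM, the vitamins biotin at 20 µM and pantothenate at 10 µM, and 2% serum, with no insulin named. On top of this mix, each system had 5 groups of 3 libraries, taken on day 5: DMSO vehicle, dicoumarol, magnolol, both compounds together (the combination) and rosiglitazone. Dicoumarol is a vitamin K antagonist used against clotting, magnolol a lignan of magnolia bark, and rosiglitazone an insulin sensitizer that activates PPARγ, the master regulator of fat cell formation. Their doses are not stated in the sources used here. Species, medium and serum differ together between the systems and cannot be told apart.

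Cells build cholesterol from acetyl-CoA. The early steps join acetyl units and make mevalonate and then the isoprene unit isopentenyl pyrophosphate. Farnesyl pyrophosphate synthase makes the branch-point intermediate, from which carbon flows either to geranylgeranyl groups for protein anchoring or to squalene and on to lanosterol, and a further set of enzymes trims lanosterol to cholesterol. The transcription factor SREBP2, made from Srebf2, is held in the endoplasmic reticulum with its escort protein SCAP and the retention proteins INSIG1 and INSIG2 while sterols are plentiful. When sterols fall, SCAP carries it to the Golgi, where proteases free its active part, which raises transcription of most enzymes of the pathway and of Insig1 itself. Adipocytes hold a large pool of free cholesterol in their lipid droplets.

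Values are normalized counts, that is, the authors' gene counts divided by a size factor for each library. A fold change is a difference on the log2(normalized count + 1) scale with its moderated standard error (SE) from limma, and a gene was called changed at a Benjamini-Hochberg adjusted p under 0.05 over all genes tested in that system. Depth, estimated from the step between low values, ran from 22.8 to 30.7 M reads a library in 3T3-L1 and from 44.8 to 70.5 M in DFAT. All members in both tables passed the minimum mean of 10 and were among 15723 and 14819 genes tested. Members had a median SE of 0.14 in 3T3-L1 and of 0.08 in DFAT. Nothing in the labels says that replicates were separate cultures, so p-values measure the spread between these samples, which may be technical. In 3T3-L1 the libraries numbered 2 held the lowest value of the group in 16 of 28 members for vehicle, 22 for dicoumarol, 22 for magnolol and 19 for the combination; with rosiglitazone replicate 1 was lowest in 15 and replicate 2 in 12. Libraries of the same number deviated together there, so the results whose call changes when the fit is blocked on that number are given both ways.

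The summed signals of adipocyte and fibroblast markers varied across the 5 groups of each system, and some of the ranges overlapped. In 3T3-L1 the summed level of 8 adipocyte markers ranged from 44205 to 62112 normalized counts in vehicle, 62262 to 96533 with dicoumarol, 89035 to 132973 with magnolol, 114981 to 180986 with the combination and 321407 to 565835 with rosiglitazone. In DFAT the same sum ranged from 18489 to 21420.1, 23442 to 25088, 36161 to 44592, 56913 to 64213 and 76446 to 83524 in that order of groups. The summed fibroblast markers were lower with rosiglitazone than with vehicle in every library of both systems, at 139174 to 180879 against 238891 to 263495 in 3T3-L1 and 1264300 to 1403450 against 1651690 to 1800600 in DFAT. In DFAT that sum was above vehicle in every library of the other treatments, at 2269940 to 2370630 with dicoumarol, 2582080 to 2954280 with magnolol and 2558860 to 3038380 with the combination. There COL1A1 and COL3A1 averaged 1440900 and 622650 normalized counts, and no other marker of the list averaged above 42441. Of 6 fibroblast markers tested in DFAT, 1 rose and 3 fell with dicoumarol, where 1.94% of all genes were called. With magnolol 2 rose and 3 fell (4.22% of all genes), with the combination 2 rose and 3 fell (10.2%), and with rosiglitazone 0 rose and 3 fell (10.8%). In 3T3-L1 dicoumarol called 0 of 8 adipocyte and 0 of 8 fibroblast markers (0% of all genes), and its fibroblast sum of 203961 to 239197 overlapped vehicle. Magnolol raised 5 adipocyte markers and called 0 fibroblast markers (1.23%). The combination raised 8 and lowered 3 fibroblast markers (5.22%), and rosiglitazone raised 8 and lowered 7 (40.1%). Lpl and Fabp4 had the highest means of the 3T3-L1 adipocyte list, at 92380 and 45799. All 4 endothelial markers were under the minimum mean in 3T3-L1, summing to 5.24 to 20.54 in any library. In DFAT the endothelial markers KDR, CDH5 and TEK averaged 0, 0.131 and 2.03 normalized counts, and PECAM1 184. The leukocyte markers PTPRC, CSF1R and CD68 averaged 0.0654, 3.75 and 71.4 in DFAT, and in 3T3-L1 Csf1r and Cd68 averaged 14.6 and 32.9. The muscle markers MYOD1, MYOG, CKM and ACTA1 averaged 0.289, 1.11, 8.54 and 119 in DFAT, where ACTA1 rose with the combination (0.59, adjusted p = 0.0331), and Acta1 averaged 12.6 in 3T3-L1. Fewer cells of a type and less RNA per cell cannot be told apart in bulk samples.

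Rosiglitazone raised most of the pathway in 3T3-L1 cells and not in DFAT cells. In 3T3-L1, 16 of 28 members rose and 3 fell against vehicle, where 40.1% of all genes tested were called, 20.3% higher and 19.9% lower. The members' median log2 fold change was 0.52 beside -0.00 over all genes, and the groups were separate for 19 of 28 members, as for 45.6% of all genes. With the replicate block 17 rose and 3 fell, where that fit called 49.8% of all genes. In DFAT no member rose and 5 of 27 fell, where 10.8% of all genes were called, 5.8% higher and 5.02% lower, and the median was -0.13 beside -0.01.

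**Figure D1:**
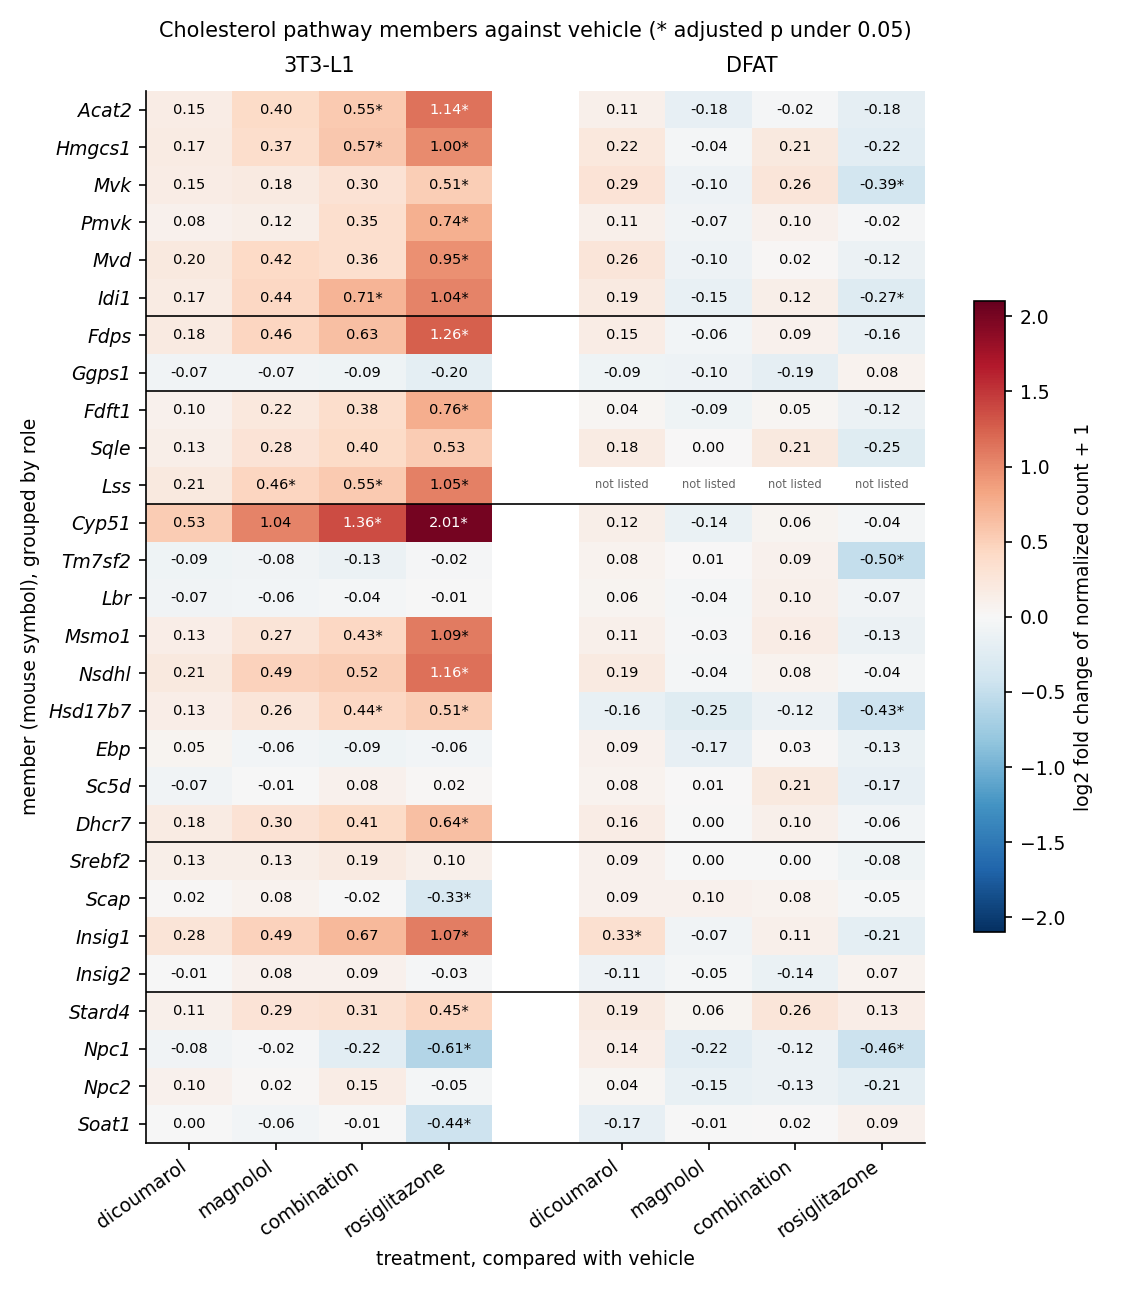
Log2 fold change of each member (rows, grouped by role from the early mevalonate steps down to sterol traffic) against vehicle for 4 treatments in 3T3-L1 and DFAT (columns); an asterisk marks an adjusted p under 0.05. In 3T3-L1 the called rises run from 0.45 for Stard4 to 2.01 for Cyp51 with rosiglitazone, while the DFAT columns hold 1 called rise and 5 called falls.

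All 6 enzymes of the early mevalonate steps rose with rosiglitazone in 3T3-L1, with a median log2 fold change of 0.98. Acat2, the cytosolic thiolase that joins acetyl-CoA units, stood at 2359, 2144 and 2540.1 normalized counts in vehicle replicates 1 to 3, 2726, 2189 and 2942 with dicoumarol, 3188, 2909.7 and 3169 with magnolol, 3659, 3048 and 3595 with the combination, and 5346, 4675 and 5559 with rosiglitazone. Every rosiglitazone library was above every other library, and the combination and magnolol libraries were all above the vehicle libraries. The rosiglitazone level was 2.21-fold the vehicle level (log2 1.14, SE 0.11, adjusted p = 2.05e-06). The mouse table also lists Acat3, a close copy of Acat2, so its counts may be shared between them. Hmgcs1, the synthase that makes HMG-CoA, rose by 1.00 on the log2 scale (SE 0.16, adjusted p = 0.000131). Idi1, the isopentenyl pyrophosphate isomerase, rose by 1.04 (SE 0.17, adjusted p = 0.000194), with the same caution because Idi2 is listed as well. Mvd, the mevalonate pyrophosphate decarboxylase, rose by 0.95 (SE 0.16), and the mevalonate kinases Pmvk and Mvk rose by 0.74 and 0.51. Mvk lost its call without vehicle replicate 2 (0.41, adjusted p = 0.0569).

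At the branch point 1 of the 2 prenyl synthases rose. Fdps, which makes farnesyl pyrophosphate, rose with rosiglitazone by 1.26 (SE 0.20, adjusted p = 0.000157), from 555 to 892 normalized counts in vehicle libraries to 1485 to 1988. Ggps1, which extends farnesyl to geranylgeranyl pyrophosphate, was at -0.20 (95% interval -0.42 to 0.02) and was not called. On the squalene branch, Fdft1 (squalene synthase) rose by 0.76 (SE 0.15, adjusted p = 0.000816). Sqle (squalene epoxidase) was at 0.53 (SE 0.24) and missed the threshold at an adjusted p of 0.0946, but passed it with the replicate block at 4.92e-05. Its libraries numbered 3 were the highest in every group, at 1591 in vehicle and 2466 with rosiglitazone.

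Lss, the cyclase that closes the rings of lanosterol, had the smallest adjusted p of all members. Its libraries read 787, 832 and 729.99 normalized counts in vehicle, 988, 829 and 894 with dicoumarol, 1139.6, 1036 and 1053 with magnolol, 1313, 1076 and 1074 with the combination, and 1782, 1516 and 1577 with rosiglitazone. The rosiglitazone libraries lay above all others, and neither the magnolol nor the combination libraries overlapped the vehicle libraries. The rise with rosiglitazone was 2.07-fold (log2 1.05, SE 0.10, adjusted p = 1.83e-06).

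Of the 9 enzymes that turn lanosterol into cholesterol, 5 rose with rosiglitazone in 3T3-L1. Cyp51, the lanosterol demethylase, showed the largest change of any member and is given by library for that reason: 728, 517 and 813 normalized counts in vehicle, 1298, 578 and 1217 with dicoumarol, 1681, 918 and 1731 with magnolol, 1971, 1055 and 2509.7 with the combination, and 2281, 2078 and 4211 with rosiglitazone. Replicate 2 was the lowest in every group, and the magnolol, combination and rosiglitazone libraries all lay above the vehicle libraries. The rise with rosiglitazone was 4.02-fold (log2 2.01, SE 0.36, adjusted p = 0.000428). Msmo1, the sterol C4-methyl oxidase, read 1669, 1601 and 1618 in vehicle, 1893, 1566 and 1929 with dicoumarol, 2068, 1753 and 2087 with magnolol, 2193, 1959 and 2446 with the combination, and 3742, 2993 and 3699.9 with rosiglitazone. Again the rosiglitazone libraries stood above all others, with a 2.12-fold level (log2 1.09, SE 0.11, adjusted p = 3.26e-06). Its partners in C4 demethylation, Nsdhl and Hsd17b7, rose by 1.16 (SE 0.26, adjusted p = 0.00225) and 0.51 (SE 0.10, adjusted p = 0.00112). Dhcr7, the reductase that yields cholesterol in one arm of the pathway, rose by 0.64 (SE 0.13, adjusted p = 0.000842).

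The other 4 enzymes of that stretch were not called and lay near 0. The 2 sterol C14-reductases, Tm7sf2 and Lbr (the latter also a receptor of the nuclear lamina), were at -0.02 (95% interval -0.43 to 0.40) and -0.01 (-0.26 to 0.24). The isomerase Ebp was at -0.06 (-0.47 to 0.35), and the desaturase Sc5d at 0.02 (-0.28 to 0.33). All 4 intervals lie below the estimate of every enzyme that rose. Tm7sf2 was also the least abundant member per kilobase of exon in vehicle cells, at 28.6 ± 6.16 (SD, n = 3) normalized counts per kb, against 923 ± 78.0 for Acat2 and 3870.0 ± 389 for Npc2. The exon lengths came from GENCODE M21, whose gene starts matched those of 0 of 28 members. Tm7sf2 also overlaps Vps51, so its level is uncertain to that extent.

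**Figure D2:**
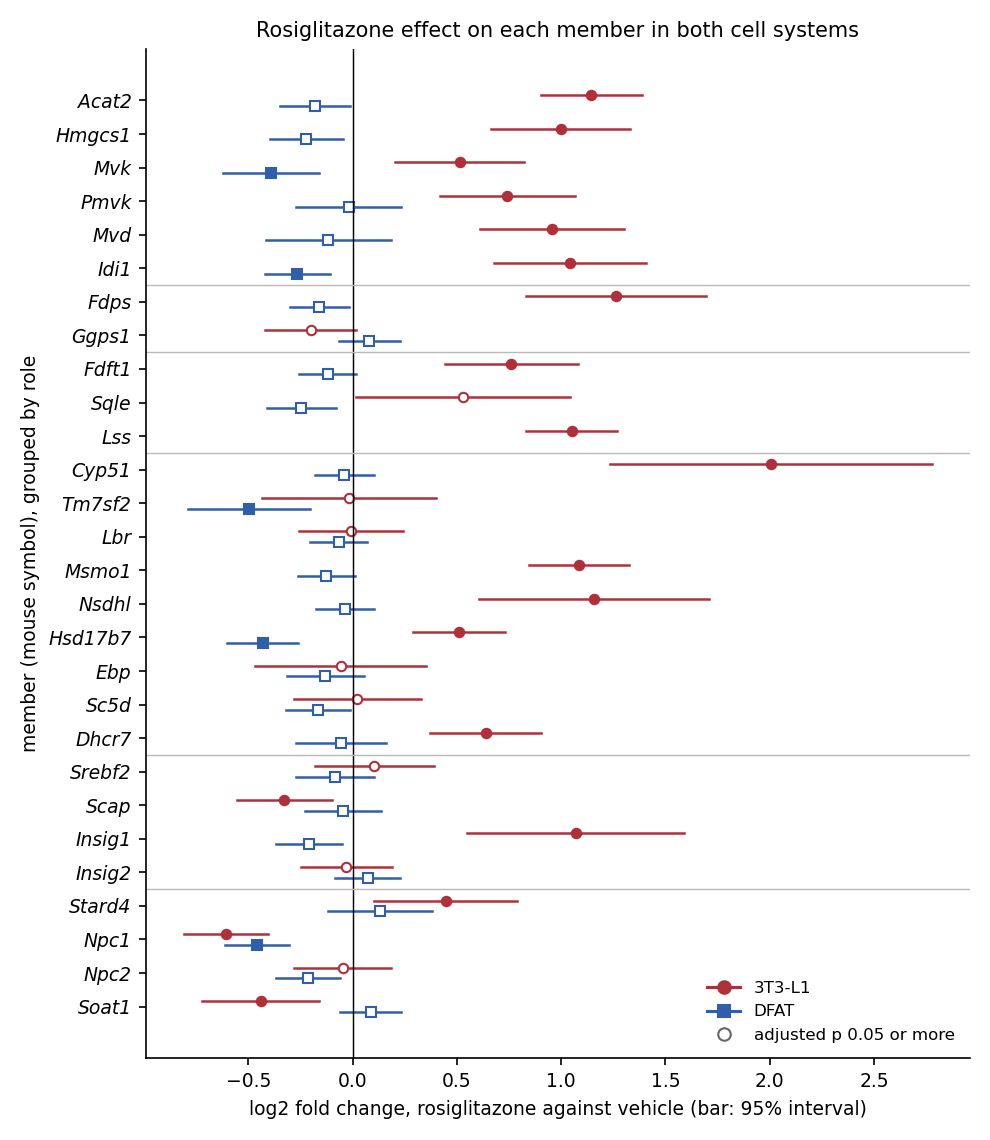
Log2 fold change of rosiglitazone against vehicle (x axis) with its 95% interval for each member (y axis), in 3T3-L1 (circles) and DFAT (squares); filled symbols passed the adjusted p of 0.05. The filled circles on the right are enzymes plus Insig1 and Stard4 in 3T3-L1, and the DFAT squares lie between -0.50 and 0.13.

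Of the 4 genes of the SREBP machinery, 1 rose, 1 fell and 2 were not called with rosiglitazone in 3T3-L1. Srebf2 read 2624, 2342 and 3001 normalized counts in 3T3-L1 vehicle libraries, 2638, 2601 and 3491 with dicoumarol, 2744, 2586 and 3388 with magnolol, 2874, 2899 and 3291 with the combination, and 2479, 3031 and 3048 with rosiglitazone. The groups overlapped throughout, and the rosiglitazone difference was 0.10 (95% interval -0.18 to 0.39, adjusted p = 0.573). Insig1 read 967, 891 and 1166 in vehicle, 1264, 965 and 1463 with dicoumarol, 1361, 1126 and 1814 with magnolol, 1632, 1156 and 2163 with the combination, and 1995, 1583 and 2942 with rosiglitazone. Replicate 3 was the highest and replicate 2 the lowest in every group, and only the rosiglitazone libraries all lay above the vehicle libraries. Insig1 rose with rosiglitazone by 1.07 on the log2 scale (SE 0.24, 95% interval 0.55 to 1.59, adjusted p = 0.00257).

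Scap, the SREBP escort, read 1679, 1655 and 1728 in vehicle, 1614, 1662 and 1878 with dicoumarol, 1669, 1680.2 and 2014 with magnolol, 1632, 1702 and 1674 with the combination, and 1172, 1592 and 1298 with rosiglitazone. The rosiglitazone libraries were all below the vehicle libraries, replicate 2 by little, and Scap fell by 0.33 (SE 0.11, adjusted p = 0.023). This call was lost without vehicle replicate 3 (adjusted p = 0.0597), rosiglitazone replicate 1 (0.12) or rosiglitazone replicate 3 (0.0682), and when only the compared groups were fitted (0.0801). Insig2, the second retention protein, read 872, 892 and 809 in vehicle, 845, 753 and 968 with dicoumarol, 869, 864 and 999 with magnolol, 903, 847 and 992 with the combination, and 806, 848 and 864 with rosiglitazone. Its groups overlapped, with a rosiglitazone difference of -0.03 (95% interval -0.25 to 0.19).

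**Figure D3:**
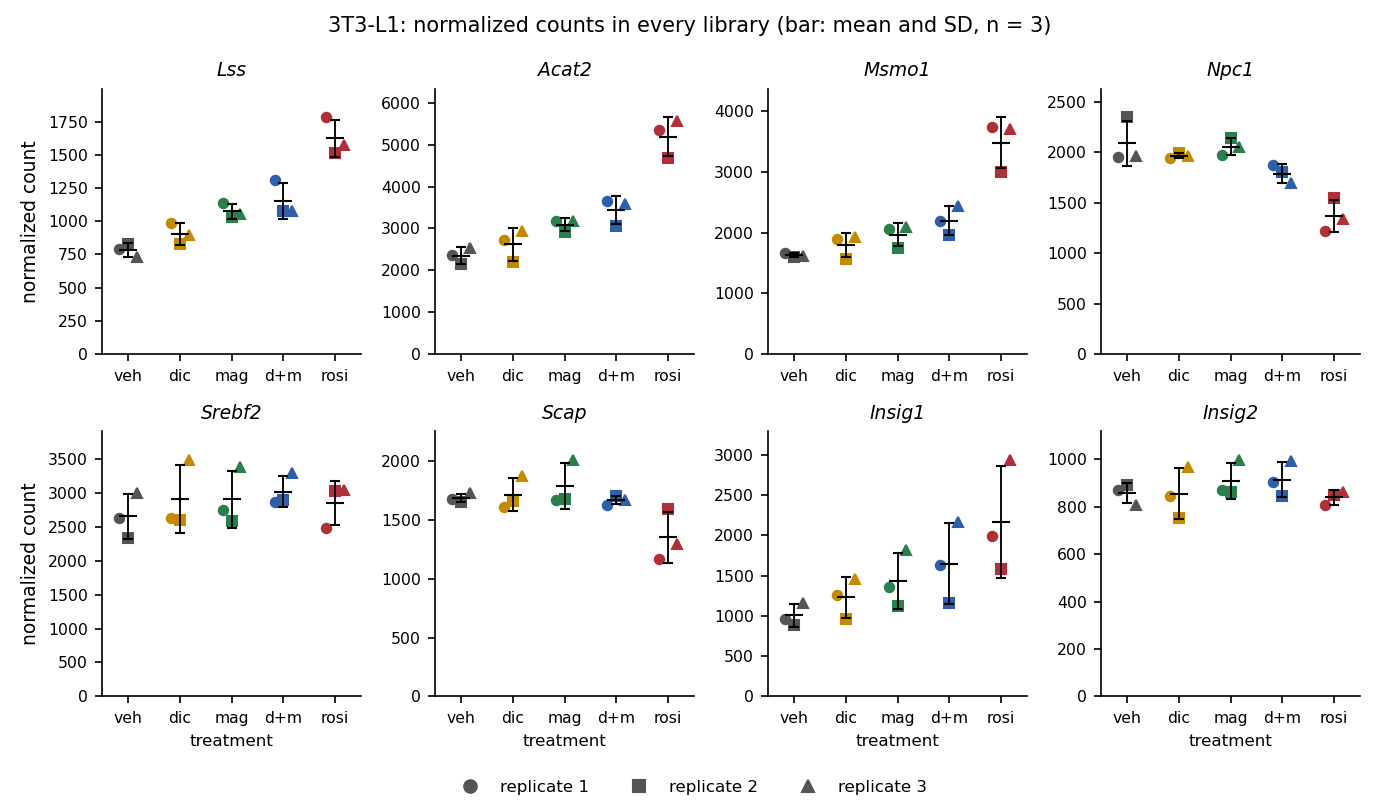
Normalized counts (y axis, from 0) of 8 members in every 3T3-L1 library by treatment (veh, vehicle; dic, dicoumarol; mag, magnolol; d+m, the combination; rosi, rosiglitazone), with symbols for replicates 1 to 3 and black bars for the mean and SD. Lss, Acat2 and Msmo1 are highest in the rosiglitazone libraries, Npc1 is lowest there, and the groups of Srebf2 and Insig2 overlap.

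Among the genes of sterol traffic and storage, 2 fell and 1 rose with rosiglitazone in 3T3-L1. Npc1, the membrane protein that exports cholesterol from lysosomes, read 1949, 2343 and 1963 in vehicle, 1943, 1992 and 1957 with dicoumarol, 1974, 2144 and 2047 with magnolol, 1871, 1802 and 1689 with the combination, and 1221, 1540.5 and 1342 with rosiglitazone. All rosiglitazone libraries lay below all others, and Npc1 fell by 0.61 (SE 0.10, adjusted p = 0.000122), to 0.656 of the vehicle level. Its soluble partner Npc2 was at -0.05 (95% interval -0.28 to 0.19). Soat1, which esterifies cholesterol in the endoplasmic reticulum, fell by 0.44 (SE 0.13, adjusted p = 0.0141). Stard4, a soluble sterol carrier, rose by 0.45 (SE 0.16, adjusted p = 0.0378).

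The calls of Soat1 and Stard4 did not hold with fewer libraries. Soat1 was lost without vehicle replicate 1 (adjusted p = 0.0612), vehicle replicate 2 (0.063), rosiglitazone replicate 1 (0.0752) or rosiglitazone replicate 3 (0.0515), and with only the compared groups (0.0613), and its vehicle and rosiglitazone libraries overlapped. Stard4 was lost without vehicle replicate 1 (0.105), vehicle replicate 2 (0.0816), rosiglitazone replicate 2 (0.0662) or rosiglitazone replicate 3 (0.138), at estimates from 0.35 to 0.45. With Mvk and Scap these are the 4 of 19 rosiglitazone calls that leaving out 1 library could end. The part of the marker shifts given above in these results was not tested.

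Because most enzymes rose together with rosiglitazone, promoter sequences are shown for the members with the largest rise (Cyp51), a small adjusted p (Msmo1, Acat2), the regulatory gene that rose (Insig1), an early synthase (Hmgcs1) and the regulator that fell (Scap). Lss, which had the smallest adjusted p, is not among them, so the stretches are examples and do not stand for all members. Each stretch is 150 bases upstream of the first annotated start, from RefSeq on GRCm38.p6, written 5′ to 3′ on the gene's strand. Capitals mark any of 4 motifs on either strand: the sterol element TCACNCCAC, the E-box CACGTG, the NF-Y box CCAAT and the GC box GGGCGG. None of the 4 is contained in another, and the other strand reads ATTGG for the NF-Y box and CCGCCC for the GC box. The stretches lie at chr5:4104698-4104847 (minus strand), chr8:64733579-64733728 (minus), chr17:12960726-12960875 (minus), chr13:119690201-119690350 (plus), chr5:28071262-28071411 (plus) and chr9:110333138-110333287 (plus).
Cyp51: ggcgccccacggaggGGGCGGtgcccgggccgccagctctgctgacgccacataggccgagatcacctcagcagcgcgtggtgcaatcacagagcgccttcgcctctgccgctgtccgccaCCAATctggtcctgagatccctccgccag
Msmo1: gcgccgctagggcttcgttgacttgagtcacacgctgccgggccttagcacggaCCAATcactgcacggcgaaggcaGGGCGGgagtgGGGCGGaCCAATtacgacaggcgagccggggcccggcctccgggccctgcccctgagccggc
Acat2: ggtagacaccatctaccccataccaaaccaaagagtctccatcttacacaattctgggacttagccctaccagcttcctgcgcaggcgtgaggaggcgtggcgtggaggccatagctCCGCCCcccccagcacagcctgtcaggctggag
Hmgcs1: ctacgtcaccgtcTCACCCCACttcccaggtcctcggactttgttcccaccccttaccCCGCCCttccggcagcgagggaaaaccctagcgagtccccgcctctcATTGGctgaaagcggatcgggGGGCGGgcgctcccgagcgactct
Insig1: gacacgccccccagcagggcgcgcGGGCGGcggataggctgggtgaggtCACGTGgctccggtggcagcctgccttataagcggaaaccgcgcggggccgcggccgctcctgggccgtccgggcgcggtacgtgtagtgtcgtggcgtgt
Scap: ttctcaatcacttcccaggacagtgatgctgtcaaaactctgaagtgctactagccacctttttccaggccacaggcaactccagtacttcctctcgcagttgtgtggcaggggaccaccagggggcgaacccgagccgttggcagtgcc

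In windows from 250 bases before to 50 bases after a start, 23 of 28 members had at least 1 window, 29 windows in all. The NF-Y box was in 21 of 29 member windows (72.4%), beside 37.4% of all 32851 windows, and the GC box in 24 (82.8%), beside 35.7%. All windows means those of 27025 genes with or without expression in these cells, and a gene with several starts gives several windows. A comparison with expressed genes alone was not made. The exact sterol element was in 1 member window, that of Hmgcs1 at 137 bases before the start, beside 1.24% of all windows, and the E-box was in 6 (20.7%), beside 7.15%. By gene, the NF-Y box was in 12 of the 13 members with a window that rose with rosiglitazone and in 9 of the 10 others, so it did not separate them. In the stretch shown for Scap none of the 4 motifs occurs, but the same window holds an E-box 28 bases and a GC box 38 bases after the start. Scap has a second annotated start downstream, and there an E-box lies 40 bases and a GC box 30 bases before that start. A match of letters is a description and not a binding site.

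Fewer members were called with the other treatments in 3T3-L1. These comparisons and the rosiglitazone comparison share the vehicle libraries, so their fold changes are given side by side and are not independent. Dicoumarol alone called 0 members by limma (0% of all genes), and 0 with the replicate block (0.502% of all genes). At an unadjusted p under 0.05 there were 0 members and 393 genes in all (2.5%), and the member median was 0.13. Its values ran from -0.09 for Tm7sf2 to 0.53 for Cyp51 (95% interval -0.25 to 1.30). Magnolol called 1 member, Lss, at 0.46 (SE 0.10, adjusted p = 0.0389), where 1.23% of all genes were called, 1.07% higher, and the member median was 0.24. Lss was not called without any 1 of the 6 libraries compared (adjusted p from 0.0681 without vehicle replicate 2 to 0.211 without magnolol replicate 1), with quantile normalization (0.0661), or with only the compared groups (0.0795). With the replicate block magnolol called 9 members, all higher, where that fit called 4.96% of all genes: Acat2 (adjusted p = 0.00146), Idi1 (0.0272), Fdps (0.00277), Lss (0.00172), Cyp51 (0.000647), Msmo1 (0.0369), Nsdhl (0.000955), Dhcr7 (0.0134) and Insig1 (0.00371).

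The combination called 7 members in 3T3-L1, all higher, where 5.22% of all genes were called, 3.86% higher. Cyp51 rose by 1.36 (SE 0.36, adjusted p = 0.0397) and Idi1 by 0.71 (SE 0.17, adjusted p = 0.0236). Hmgcs1 rose by 0.57, Lss by 0.55, Acat2 by 0.55, Hsd17b7 by 0.44 and Msmo1 by 0.43, with adjusted p from 0.00433 for Lss to 0.0458 for Hmgcs1. The member median was 0.36, beside -0.01 over all genes. No member fell, and Npc1 was at -0.22 (95% interval -0.42 to -0.02, adjusted p = 0.244).

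Most of these combination calls did not hold when a library was left out, in fits without the replicate block. Only Lss kept its call whichever of the 6 libraries was left out. Hsd17b7 was lost when only the compared groups were fitted (adjusted p = 0.0578), Msmo1 without the minimum mean (0.0545) or with quantile normalization (0.0644), and Hmgcs1 without the minimum mean (0.0608). Without combination replicate 1, Lss was the sole call, and Acat2 then stood at 0.50 with an adjusted p of 0.0702. The estimates moved less than the calls: Idi1 was at 0.72 without vehicle replicate 1 and Msmo1 at 0.43 without combination replicate 1, both not called. Leaving out vehicle replicate 1, 2 or 3 gave 2, 3 and 2 calls, and leaving out combination replicate 3 gave 2. The fit with the replicate block called 15 members, all higher (13.5% of all genes), adding Pmvk (adjusted p = 0.0152), Fdps (7.11e-05), Fdft1 (0.00221), Sqle (0.00299), Nsdhl (0.00025), Dhcr7 (0.000528), Insig1 (0.000107) and Stard4 (0.0338).

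Adding magnolol to dicoumarol called 0 members in 3T3-L1 (0.0254% of all genes), while 8 of 28 had an unadjusted p under 0.05, beside 8.1% of all genes, and the median difference was 0.21. With the replicate block the combination exceeded dicoumarol for 9 members (3.62% of all genes): Acat2 (0.40, adjusted p = 0.00264), Idi1 (0.54, 0.0102), Fdps (0.45, 0.00516), Fdft1 (0.28, 0.0438), Lss (0.35, 0.0176), Cyp51 (0.84, 0.00584), Msmo1 (0.29, 0.0301), Nsdhl (0.31, 0.0352) and Insig1 (0.40, 0.0223). Adding dicoumarol to magnolol called 0 members (0% of all genes), with and without the block, where 0 members had an unadjusted p under 0.05, beside 2.14% of all genes, and values ran from -0.20 for Npc1 to 0.32 for Cyp51 (95% interval -0.45 to 1.09). The interaction of the 2 compounds, the departure of the combination from the sum of their log2 effects, also called 0 members (0% of all genes), 0 of them at an unadjusted p under 0.05 beside 0.496% of all genes, with values between -0.26 and 0.16 and a median SE of 0.20.

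Rosiglitazone exceeded the combination for 5 members in 3T3-L1 and lay below it for 2, where 18.3% of all genes were called, 9.53% higher and 8.78% lower. The higher members were Msmo1 (0.66, adjusted p = 0.00202), Fdps (0.63, 0.0421), Acat2 (0.60, 0.0035), Mvd (0.60, 0.0207) and Lss (0.50, 0.00527), and the lower ones Soat1 (-0.43, 0.0351) and Npc1 (-0.39, 0.0117). Acat2, Msmo1 and Lss kept their calls whichever library was left out. Without rosiglitazone replicate 1, 4 members were called in place of 7, since Mvd (adjusted p = 0.086), Fdps (0.163), Npc1 (0.0652) and Soat1 (0.171) lost their calls and Hmgcs1 gained one (0.0487). With only the compared groups Npc1 (0.0549) and Soat1 (0.0741) were lost, and without the minimum mean Fdps (0.0555). Fdps and Soat1 also rested on combination replicates 1 and 2 and rosiglitazone replicate 3, with adjusted p from 0.0621 to 0.152, and Mvd on combination replicate 3 (0.0832), as did Fdps (0.064). With the replicate block 13 members were higher and 3 lower (33.3% of all genes), the third lower one being Scap (-0.31, adjusted p = 0.0169). The block also added Hmgcs1 (adjusted p = 0.0166), Pmvk (0.00441), Idi1 (0.0295) and Fdft1 (0.000957) among the higher members. Nsdhl (2.37e-05), Dhcr7 (0.0139) and Insig1 (0.00368) were added there as well. Cyp51 was 0.64 higher (95% interval -0.13 to 1.42) and was called only with the block (0.0049).

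In DFAT cells rosiglitazone lowered 5 members, and these came from several stages of the pathway. NPC1 read 18086, 16766 and 16009 normalized counts in vehicle, 20089, 17982 and 17928 with dicoumarol, 15156, 13429 and 14942 with magnolol, 15554, 14628 and 16517 with the combination, and 13034, 11422 and 12559.5 with rosiglitazone. The rosiglitazone libraries were below all others, and NPC1 fell by 0.46 (SE 0.07, adjusted p = 0.000341). HSD17B7 read 1058, 1046 and 1083 in vehicle, 992, 968 and 901 with dicoumarol, 882, 966 and 831 with magnolol, 1058, 993 and 882 with the combination, and 789, 841 and 733 with rosiglitazone. The vehicle libraries were above every rosiglitazone library, and HSD17B7 fell by 0.43 (SE 0.08, adjusted p = 0.00153).

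MVK read 659, 652 and 554 in DFAT vehicle libraries, 804, 716 and 763 with dicoumarol, 638, 572 and 527 with magnolol, 847, 718 and 675 with the combination, and 442, 539 and 441 with rosiglitazone. The vehicle and rosiglitazone libraries were separate by a small gap, and MVK fell by 0.39 (SE 0.11, adjusted p = 0.0253). IDI1 read 4384, 3943 and 4663 in vehicle, 5079, 4632 and 5048 with dicoumarol, 4069, 3831 and 3763 with magnolol, 4873, 4331 and 4895 with the combination, and 3318, 3801 and 3679.6 with rosiglitazone. Its rosiglitazone libraries were below its vehicle libraries, and IDI1 fell by 0.27 (SE 0.07, adjusted p = 0.026). TM7SF2 fell by 0.50 (SE 0.14, adjusted p = 0.0273), although rosiglitazone replicate 2 (679) overlapped the vehicle range of 657 to 852.

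**Figure D4:**
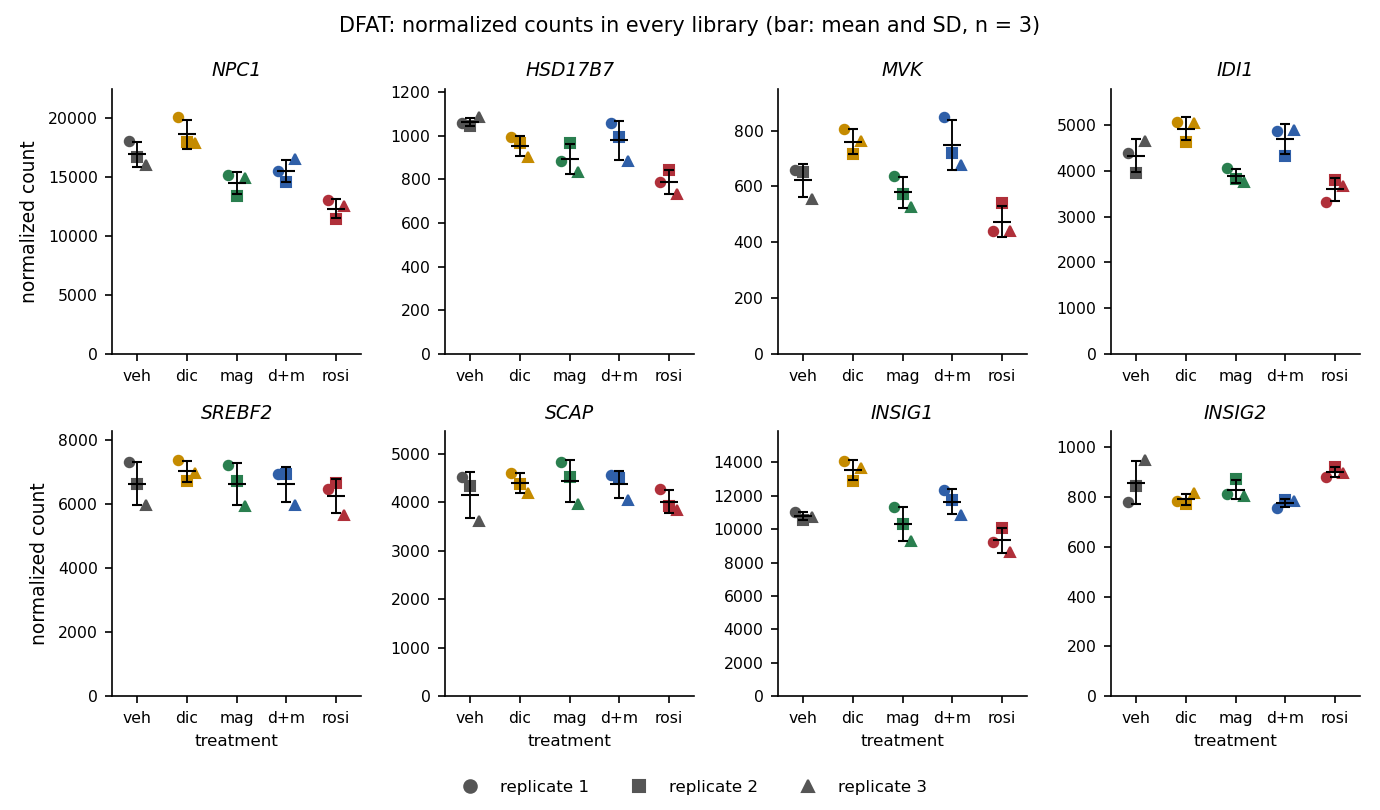
Normalized counts (y axis, from 0) of 8 members in every DFAT library by treatment (veh, vehicle; dic, dicoumarol; mag, magnolol; d+m, the combination; rosi, rosiglitazone), with symbols for replicates 1 to 3 and black bars for the mean and SD. NPC1 and HSD17B7 are low in the rosiglitazone libraries, and INSIG1 is highest in the 3 dicoumarol libraries.

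NPC1 and HSD17B7 kept their DFAT calls whichever of the 6 libraries was left out. MVK, IDI1 and TM7SF2 were lost without vehicle replicate 1 (adjusted p = 0.11, 0.0871 and 0.135), without rosiglitazone replicate 1 (0.0888, 0.113 and 0.115) and without rosiglitazone replicate 3 (0.104, 0.0501 and 0.115), which left 2, 2 and 3 members called; in the last case SQLE was gained (0.0479). MVK and TM7SF2 were also lost without vehicle replicate 2 (0.102 and 0.0869), and IDI1 without vehicle replicate 3 (0.111). All 3 were lost with only the compared groups (0.0775, 0.107 and 0.0774) and without the minimum mean (0.0603, 0.0569 and 0.085). Without rosiglitazone replicate 2, 8 members were called, adding HMGCS1 (0.0141), INSIG1 (0.0305) and NPC2 (0.00953). SQLE was also gained without vehicle replicate 2 (0.0363). Quantile normalization added SQLE (0.0283) and HMGCS1 (0.0358). The replicate block added SQLE (0.00439), FDPS (0.0452), INSIG1 (0.022) and NPC2 (0.0331), all lower, where that fit called 16% of all genes. In the fit of all libraries without the block, the members not called ran from -0.25 for SQLE (95% interval -0.41 to -0.08) to 0.13 for STARD4 (-0.12 to 0.38). CYP51A1 was at -0.04 (-0.18 to 0.10).

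Dicoumarol raised 1 member in DFAT, INSIG1, where 1.94% of all genes were called, 0.911% higher. Its libraries read 11029.8, 10574.5 and 10710.4 in vehicle, 14093, 12881 and 13641 with dicoumarol, 11335, 10307 and 9277 with magnolol, 12353, 11728.5 and 10837 with the combination, and 9240.1, 10088.5 and 8645 with rosiglitazone. The dicoumarol libraries were the 3 highest of all 15, and INSIG1 rose by 0.33 (SE 0.08, adjusted p = 0.028), or 1.26-fold. The call was lost without any 1 of the 6 libraries (adjusted p from 0.0585 without dicoumarol replicate 2 to 0.15 without dicoumarol replicate 1) and without the minimum mean (0.0839). The member median was 0.11, with 23 of 27 members above 0, 50.1% of all genes being above 0.

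SREBF2 in DFAT read 7307, 6622 and 5968 in vehicle, 7382, 6732 and 6971 with dicoumarol, 7226, 6728 and 5930.4 with magnolol, 6927, 6929 and 5972 with the combination, and 6454, 6641 and 5647 with rosiglitazone. SCAP read 4515, 4338 and 3615, then 4609, 4373 and 4201, then 4839, 4515 and 3970.1, then 4559, 4512 and 4059, and 4278, 3921 and 3840.4 in the same order of groups. INSIG2 read 781, 842 and 949, then 782, 772 and 815, then 809.9, 872 and 803, then 757, 786 and 784, and 880.4, 919 and 895. The vehicle ranges of these 3 regulators overlapped every treated group, and none was called against vehicle, with values from -0.14 for INSIG2 with the combination (95% interval -0.30 to 0.01) to 0.10 for SCAP with magnolol (-0.08 to 0.28).

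Magnolol called 0 members in DFAT (4.22% of all genes), and 3 of 27 had an unadjusted p under 0.05, as had 16.7% of all genes, around a median of -0.06. The combination also called 0 (10.2% of all genes), and 7 of 27 had an unadjusted p under 0.05, as had 24.6% of all genes, around a median of 0.08. Its values ran from -0.19 for GGPS1 (95% interval -0.34 to -0.04) to 0.26 for MVK (0.03 to 0.49). Leaving out vehicle replicate 3 gave 3 calls for the combination, MSMO1 (adjusted p = 0.0494), SC5D (0.0494) and STARD4 (0.0468), leaving out vehicle replicate 2 gave GGPS1 (0.0493), and leaving out combination replicate 2 gave SQLE (0.0446).

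Adding magnolol to dicoumarol called 0 DFAT members (2.35% of all genes), and 4 of 27 had an unadjusted p under 0.05, as had 12.7% of all genes. The lowest value was that of NPC1 (-0.26, 95% interval -0.42 to -0.11, adjusted p = 0.0779). Adding dicoumarol to magnolol called 0 (0.621% of all genes), while 12 of 27 had an unadjusted p under 0.05, beside 6.67% of all genes. Of the members 23 of 27 lay above 0, beside 49.2% of all genes, and all were measured in the same libraries. There the replicate numbers paired the libraries, and with the block MVK (0.36, adjusted p = 0.0455) and IDI1 (0.27, adjusted p = 0.0395) rose, where that fit called 1.96% of all genes. The interaction called 0 members (0.081% of all genes), 1 of them at an unadjusted p under 0.05 beside 3.93% of all genes.

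The widest contrast within DFAT was rosiglitazone against the combination, in which 11 of 27 members were lower and 1 was higher, where 17% of all genes were called, 8.24% higher and 8.79% lower. The lower members were MVK (-0.65, adjusted p = 0.000399), TM7SF2 (-0.59, 0.00705), SQLE (-0.45, 0.000621), HMGCS1 (-0.43, 0.00148), IDI1 (-0.38, 0.00144), SC5D (-0.37, 0.00165), NPC1 (-0.34, 0.00401), INSIG1 (-0.32, 0.00668), HSD17B7 (-0.31, 0.014), MSMO1 (-0.29, 0.00497) and FDPS (-0.25, 0.0156). GGPS1 was higher (0.27, adjusted p = 0.0125). The groups were separate for 18 of 27 members, as for 29.7% of all genes. Of the 12 calls, 10 held whichever library was left out; FDPS was lost without combination replicate 1 (0.0909), and HSD17B7 without combination replicate 1 (0.0773) or rosiglitazone replicate 3 (0.0667). With only the compared groups, FDPS (0.0702), GGPS1 (0.0554) and HSD17B7 (0.0848) missed the threshold. The replicate block, which called 24.9% of all genes, added FDFT1 (adjusted p = 0.02) and LBR (0.0304) among the lower members and INSIG2 (0.0258) among the higher ones.

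The difference between the systems was tested for 27 members among 9370 symbols tested in both tables. For rosiglitazone 16 members differed, 15 with the larger log2 fold change in 3T3-L1 and 1, Soat1, with the smaller one, where 39.6% of all symbols differed, 19.6% with the larger and 20% with the smaller change in 3T3-L1. The member median of the difference was 0.76, beside -0.02 over all symbols. Cyp51 differed by 2.05 (SE 0.37, adjusted p = 4.65e-05), Fdps by 1.42 (SE 0.21, adjusted p = 3.27e-06), Acat2 by 1.33 (SE 0.14, adjusted p = 5.29e-09) and Insig1 by 1.28 (SE 0.26, adjusted p = 0.000166). Npc1, which fell in both systems, differed by -0.15 (95% interval -0.40 to 0.09), and Srebf2 by 0.19 (-0.14 to 0.52). Sqle lost its call without 3T3-L1 vehicle replicate 1 (0.0563), vehicle replicate 2 (0.0596) or rosiglitazone replicate 3 (0.0917), and the other 15 kept theirs whichever library was left out.

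Smaller numbers of members differed between systems for the other treatments. The combination gave 4, Cyp51, Idi1, Acat2 and Hsd17b7, where 12.3% of all symbols differed, 6.77% with the larger change in 3T3-L1. Magnolol gave 2, Acat2 and Hsd17b7 (3.69% of all symbols, 2.08% with the larger change in 3T3-L1), and dicoumarol 0 (0.16% of all symbols), with 1 member at an unadjusted p under 0.05, beside 5.59% of all symbols. With the replicate block in both systems, although the DFAT numbers were not found to pair the libraries with vehicle, magnolol gave 11 (11.2% of all symbols), adding Mvd, Idi1, Fdps, Fdft1, Cyp51, Msmo1, Nsdhl, Dhcr7 and Insig1. The combination then gave 10 (23.5%), adding Fdps, Fdft1, Msmo1, Nsdhl, Dhcr7 and Insig1, rosiglitazone gave 19 (51%), adding Tm7sf2 with the larger and Ggps1 and Scap with the smaller change in 3T3-L1, and dicoumarol gave 0 (2.32%). All 6 of the changes called without the block were larger in 3T3-L1. Leaving out 3T3-L1 magnolol replicate 1 ended both magnolol calls (adjusted p = 0.0588 for Acat2 and 0.0525 for Hsd17b7), and leaving out any of 7 libraries ended the combination call of Idi1, as 3 of them did for Cyp51.

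**Figure D5:**
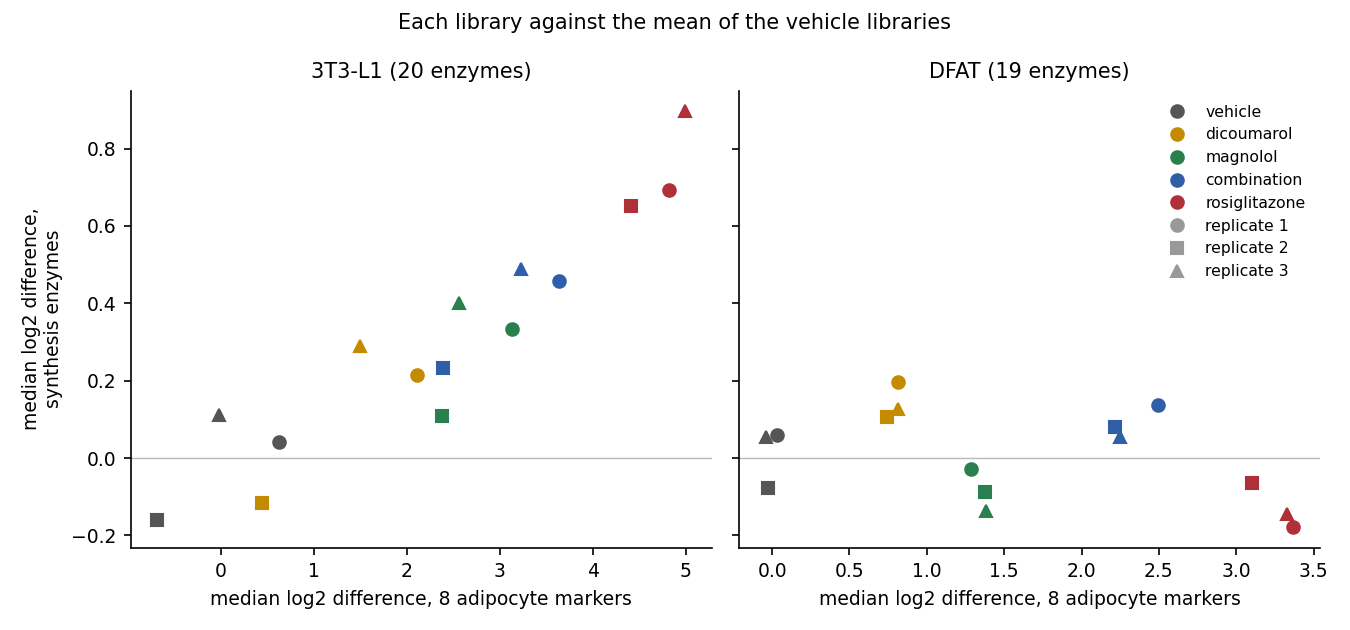
For each library, the median log2 difference from the mean of the vehicle libraries over the synthesis enzymes (y axis; 20 in 3T3-L1, 19 in DFAT) against the same over 8 adipocyte markers (x axis), coloured by treatment with symbols for replicates. In 3T3-L1 the rosiglitazone libraries reach 0.65 to 0.90 for enzymes at 4.41 to 4.99 for markers; in DFAT they lie at -0.18 to -0.06 for enzymes at 3.10 to 3.37 for markers.

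With rosiglitazone the adipocyte markers were high in both systems, the enzymes only in 3T3-L1 (Cyp51, Fdps and Acat2 differed between the systems in the test above). In 3T3-L1 the median enzyme stood 0.23 to 0.49 above the vehicle mean in the combination libraries, whose median adipocyte marker stood 2.39 to 3.64 above it. The vehicle libraries themselves ran from -0.16 to 0.11 for enzymes and -0.68 to 0.63 for markers, with replicate 2 lowest in both. In DFAT the combination libraries had enzymes at 0.06 to 0.14 and markers at 2.22 to 2.49. All 8 adipocyte markers rose with rosiglitazone in each system. The part of the markers in the enzyme result was not tested.

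Neighbouring lists of the pathway were counted in the same fits, where rosiglitazone called 20.3% of all genes higher and 19.9% lower in 3T3-L1, and 5.8% and 5.02% in DFAT. Nothing particular to a list is read from its count. Of 10 genes for SREBP processing and sterol-regulated degradation, 3 rose and 3 fell with rosiglitazone in 3T3-L1: Tmem97, a sterol-responsive membrane protein, rose by 0.96 (adjusted p = 8.3e-06), Srebf1, which encodes SREBP1, rose by 0.76 (adjusted p = 6.5e-05), and Rnf145, a ubiquitin ligase that acts on the pathway, fell by 0.24 (adjusted p = 0.00863). In DFAT 0 of the 8 tested were called with rosiglitazone, while RNF145 fell by 0.25 with dicoumarol (adjusted p = 0.0119) and by 0.31 with the combination (adjusted p = 0.000447). Of 7 tested enzyme partners and remaining steps, 4 rose with rosiglitazone in 3T3-L1, among them Acat1, the mitochondrial thiolase (0.92, adjusted p = 4.3e-07) and Cyb5b (0.50, adjusted p = 0.00208). In DFAT 2 of 8 rose and 1 fell; the rises were POR, the reductase that feeds electrons to CYP51 (0.39, adjusted p = 0.00078) and PGRMC1 (0.21, adjusted p = 0.0419).

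The non-sterol branch gave 4 rises of 10 genes with rosiglitazone in 3T3-L1, led by Pdss1, which builds the ubiquinone side chain (1.69, adjusted p = 3.86e-07), Rabggtb (0.66, adjusted p = 0.000176) and Pdss2 (0.50, adjusted p = 0.00392), and 0 of 9 in DFAT. Of the genes for intracellular sterol transport, 1 of 9 rose and 2 fell in 3T3-L1: Gramd1b, which moves sterol from the plasma membrane, rose by 1.16 (adjusted p = 4.2e-06), Stard5 fell by 0.60 (adjusted p = 0.00225), and Lipa, the lysosomal acid lipase, fell by 0.51 (adjusted p = 0.00337). In DFAT 1 of 8 was called, LIPA, which rose by 0.53 (adjusted p = 0.00013). Of 8 fatty acid synthesis and desaturation genes, 4 rose with rosiglitazone in 3T3-L1, including Thrsp (4.14, adjusted p = 6.47e-05), Fasn (0.70, adjusted p = 5.39e-05) and Acaca (0.56, adjusted p = 8.59e-05). In DFAT 2 of 8 rose, THRSP (3.62, adjusted p = 1.85e-13) and the elongase ELOVL6 (1.398, adjusted p = 2.15e-10).

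Several members overlap or neighbour other genes, and whether the counting used strand is not given in the sources used here. Among named partners with a mean over 100 normalized counts, in mouse these are Cyp51 with Akap9, Fdft1 with Ctsb, Ggps1 with Arid4b, Tm7sf2 with Vps51 and Npc1 with Rmc1. In pig they are ACAT2 with TCP1, IDI1 with WDR37, FDFT1 with CTSB, NSDHL with CETN2 and NPC1 with RMC1. Hmgcs1, Srebf2, Scap and Insig2 overlap tested genes of lower counts, and pig SC5D an unnamed one. These counts are uncertain to that extent.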

How the data were processed

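Bulk RNA-seq of 15 3T3-L1 and 15 DFAT libraries, 5 groups of 3 in each, was analysed from 2 deposited tables of signal values, in which the authors had scaled gene counts with DESeq2, per the labels' file descriptions. Libraries were made from mRNA with dUTP strand marking, per the labels' protocols. The submitters' processing notes name bcl2fastq 2.19.1.403, STAR and DESeq2, and the build GRCm38 for all samples. No counter, pig build or annotation is named in the sources used here. The table starts of 0 of 28 mouse members matched the GRCm38 annotation, so no gene coordinates from the tables are printed. Promoters came from RefSeq on GRCm38.p6, matched by symbol.

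Whole reads could not be recovered (81.6% to 82.7% of low values in 3T3-L1 and 89.8% to 91% in DFAT were whole within 0.02 reads), so count tests were not used. The replicate pairs differed by more than sampling noise, with a chi-square per gene of 15.6 or more in 3T3-L1 and 8.03 or more in DFAT. Genes with a mean of at least 10 entered 1 linear model per system, all 5 groups together, on log2(value + 1), by limma 3.58.1 (R 4.3.3) with its variance trend; tests were two-sided and Benjamini-Hochberg adjusted over all genes tested. Each system gave 8 comparisons. A difference between systems was tested as the difference of the 2 log2 fold changes over its SE (the 2 SEs combined in quadrature), with degrees of freedom added. Levels per kilobase used the exon union of GENCODE M21. Figures were drawn with Python 3.11.15 and matplotlib 3.10.9. The fit was tested on data simulated with independent noise in each library. Such data lack the shared deviations of same-number libraries, so that test does not bear on the choice of the replicate block.

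Replicates carry the numbers 1 to 3 in the labels. Among 3T3-L1 libraries, each of 30 same-number pairs correlated above 0.1 in their deviations from the group means (lowest 0.106, median 0.3). For this reason the numbers were taken to pair the libraries, although the 30 pairs share the same 15 libraries. The median between different numbers was -0.142. Deviations within a group of 3 sum to 0 for each gene, so this value largely follows from the same-number one and adds no separate evidence. In DFAT this held for the combination with magnolol (0.118 to 0.345) and with rosiglitazone (0.105 to 0.288). Alternatives were a pseudocount of 5, no minimum mean, quantile normalization, only the compared groups, the replicate block, and leaving out each library. Each was run on its own, so the fits that left out a library had no replicate block. Values of every member are given where called, and values in every library for the members with the 4 smallest adjusted p against vehicle in each table, for Srebf2, Scap, Insig1 and Insig2, and for Cyp51, which was added after its values were seen. From neighbouring lists at most the 3 called genes with the smallest adjusted p are named per table, and some called genes of these lists are not reported here. The members and lists were chosen with earlier results of these data known.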

Additional observations from a re-analysis of the deposited data

Results flagged for a closer look

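The rosiglitazone effect differed between 3T3-L1 and DFAT, by the test of the difference itself, for 16 members. The difference in log2 fold change, 3T3-L1 minus DFAT, was 1.33 for Acat2, 1.22 for Hmgcs1, 0.91 for Mvk, 0.76 for Pmvk, 1.07 for Mvd and 1.31 for Idi1 among the early steps. It was 1.42 for Fdps, 0.88 for Fdft1 and 0.78 for Sqle on the way to lanosterol. Among the later enzymes it was 2.05 for Cyp51, 1.21 for Msmo1, 1.197 for Nsdhl, 0.94 for Hsd17b7 and 0.69 for Dhcr7. Insig1 differed by 1.28, and Soat1 by -0.53.

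The combination effect differed by 0.57 for Acat2, 0.59 for Idi1, 1.30 for Cyp51 and 0.56 for Hsd17b7. The magnolol effect differed by 0.58 for Acat2 and 0.51 for Hsd17b7. Species, medium and serum differ together between the systems and cannot be told apart.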

How the results depend on the processing

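In 6898 alternative values of single members no called value reversed its sign, 6679 kept their side of the threshold, 117 lost a call and 102 gained one; of 252 alternative counts of called members, 200 stayed within 1.5 times the reported one. The cause of the changes was not tested. Most of the 6898 values belong to members without a call. Of the 3T3-L1 calls, 15 of 19 for rosiglitazone, 1 of 7 for the combination, 0 of 1 for magnolol and 3 of 7 for rosiglitazone against the combination held under every alternative. In DFAT 2 of 5 held for rosiglitazone, 0 of 1 for dicoumarol and 9 of 12 for rosiglitazone against the combination. Between systems 15 of 16 held for rosiglitazone, 2 of 4 for the combination and 0 of 2 for magnolol. With the replicate block the counts in 3T3-L1 were 9 for magnolol (reported 1), 15 for the combination (7), 9 for the combination against dicoumarol (0) and 16 for rosiglitazone against the combination (7). In DFAT the block gave 2 for magnolol (0; 9.18% of all genes), 4 for the combination (0; 17.8%), 9 for rosiglitazone (5; 16%), 2 for the combination against dicoumarol (0; 6.03%) and 2 for the combination against magnolol (0). Between systems it gave 11 differences for magnolol (2) and 10 for the combination (4). In the DFAT comparisons with vehicle and of the combination with dicoumarol, the libraries share only a number, with correlations from -0.306 to 0.209. Quantile normalization gave 0 for 3T3-L1 magnolol, 1 for the DFAT combination and 1 for the DFAT combination against dicoumarol. Fitting only the compared groups gave 0 for 3T3-L1 magnolol and 2 for DFAT rosiglitazone. No minimum mean gave 0 for DFAT dicoumarol and 2 for DFAT rosiglitazone.

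Leaving out each library in turn gave 0 to 0 calls for 3T3-L1 magnolol, 1 to 7 for the combination, and 4 to 10 for rosiglitazone against the combination. In DFAT it gave 0 to 0 for dicoumarol, 0 to 3 for the combination and 2 to 8 for rosiglitazone. Between systems it gave 0 to 4 for magnolol, with 0 without 3T3-L1 magnolol replicate 1, 1 without 3T3-L1 vehicle replicate 1, vehicle replicate 3, magnolol replicate 3 or DFAT magnolol replicate 3, and 4 without 3T3-L1 magnolol replicate 2. For the combination it gave 2 to 6, with 2 without 3T3-L1 vehicle replicate 2, combination replicate 1 or combination replicate 3. The 95% interval of Cyp51 with dicoumarol in 3T3-L1, -0.25 to 1.30, shows the width that 3 libraries a group left for that gene.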
